A study of Mus musculus with 6 samples.

Results

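The genes described here are 8 genes of cholesterol synthesis and its control, Hmgcs1, Idi1, Fdps, Fdft1, Sqle, Lss, Insig1 and Srebf2, out of 15601 genes in the deposited count table. All 8 were found in that table. They were chosen by name from a pathway list and not by a rule on measured levels, but with earlier results of these data known. The cells were CD8 T cells from MB49 tumours, a mouse urothelial carcinoma cell line grown under the skin of C57BL/6 mice. All hosts were wild type and untreated, and the groups were male and female mice with 3 biological replicates each, inoculated at 6 weeks of age and listed as 6 to 8 weeks old. Tumours were taken on day 10, live CD3+ CD8+ CD4- cells were sorted, and 10x Genomics 3' chemistry gave the single-cell libraries.

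Cells make cholesterol from acetyl units through the mevalonate pathway. When sterol in the endoplasmic reticulum is low, the escort protein SCAP carries SREBP2, the product of Srebf2, to the Golgi, where it is cut to release a transcription factor that turns on the enzymes of the pathway. When sterol is plentiful, INSIG proteins hold SCAP back, while liver X receptors (LXR) turn on genes of cholesterol export such as Abca1 and Abcg1, and the ubiquitin ligase gene Mylip. T cells raise this pathway when they are activated and divide, since new membrane needs sterol.

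The table held 26698 cells, 16743 from males and 9955 from females, in libraries 1, 3 and 4 from males and libraries 2, 5 and 6 from females. Library totals were 41580277 to 66105318 unique molecular identifiers (UMIs, each a counted RNA molecule) in males and 25562319 to 61434194 in females. The authors assigned each cell to 1 of 11 clusters, and each of the 66 sums of a library and a cluster held 93 to 1322 cells. Of the barcodes, 84 recurred across libraries and marked 169 cells. By markers among their top 10 genes, cluster 2 was innate-like, 3 proliferating-like, 4 cytokine-producing-like (Il2, Ccl3, Ccl4, Ifng), 9 interferon-stimulated-like and 7 naive or central memory-like. Cluster 5 was led by DNA replication genes (Mcm3, Mcm5, Gins2), cluster 8 by genes that included Gzmc, Gzmf, Gzme and Gzmd and cluster 1 by Gzmm, Ccl5 and Cxcr3. Cluster 0 had no marker among its top genes, and its summed exhaustion markers (3624 CPM) ranked second of 11, after cluster 6 (6744 CPM). Cluster 6, with a median of 1742 UMIs and 30.03% mitochondrial reads and Gzmg, Gzmd, Gzme and Gzmf among its top genes, and cluster 10, with 1461 UMIs and 20.3%, were not named. Outside cluster 2, Cd8a read at least 582 CPM in every library and Cd4 at most 0.588 CPM.

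The genes lie on several chromosomes (build mm10): Hmgcs1 at chr13:119690379-119708260, Idi1 at chr13:8885501-8892451, Fdps at chr3:89093588-89101959, Fdft1 at chr14:63145150-63179578, Sqle at chr15:59315077-59331192, Lss at chr10:76531588-76557138, Insig1 at chr5:28071363-28078662 and Srebf2 at chr15:82147181-82205379. Fdps and Fdft1 are on the minus strand and the others on the plus strand. Fdft1 overlaps Ctsb, a lysosomal protease gene on the opposite strand that is also in the table, and whether counting used strand is not given in the sources used here, so reads from the shared stretch cannot be told apart. Ctsb averaged 198 CPM in cluster 0 and 180 CPM in cluster 8, so it did not share the higher level of Fdft1 in cluster 8 described below.

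RefSeq promoters (build GRCm38.p6, 250 bases before to 50 bases after the start) were at hand for 5 of the 8 genes, and 3 are shown, Hmgcs1 for its sterol response element, Insig1 for its E-box and Idi1 as one with CCAAT alone, as in Lss and Srebf2. Capitals mark matches on either strand to CACCCCAC or TCACNCCAC (forms of the sterol response element bound by SREBP2), CCAAT (bound by NF-Y, a partner of SREBP2, and read as ATTGG on the other strand) and CACGTG (the E-box).
Hmgcs1, chr13:119690101-119690400, plus strand: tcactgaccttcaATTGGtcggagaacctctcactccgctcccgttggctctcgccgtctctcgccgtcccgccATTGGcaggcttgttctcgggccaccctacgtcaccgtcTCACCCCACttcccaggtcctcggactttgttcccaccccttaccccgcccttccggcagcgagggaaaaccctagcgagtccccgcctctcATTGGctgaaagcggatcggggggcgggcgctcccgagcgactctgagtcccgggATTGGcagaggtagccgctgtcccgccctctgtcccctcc
Idi1, chr13:8885356-8885655, plus strand: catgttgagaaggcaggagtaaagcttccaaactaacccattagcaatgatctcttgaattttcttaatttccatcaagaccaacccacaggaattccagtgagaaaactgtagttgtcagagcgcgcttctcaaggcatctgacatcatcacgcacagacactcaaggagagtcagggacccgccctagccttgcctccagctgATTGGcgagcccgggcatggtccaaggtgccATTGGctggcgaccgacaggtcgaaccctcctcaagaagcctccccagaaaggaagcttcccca
Insig1, chr5:28071162-28071461, plus strand: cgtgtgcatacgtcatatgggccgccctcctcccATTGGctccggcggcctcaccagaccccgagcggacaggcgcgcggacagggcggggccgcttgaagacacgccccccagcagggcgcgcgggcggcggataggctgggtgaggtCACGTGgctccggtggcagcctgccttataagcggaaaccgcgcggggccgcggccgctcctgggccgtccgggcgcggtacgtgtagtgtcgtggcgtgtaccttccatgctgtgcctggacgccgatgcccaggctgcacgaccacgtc
CCAAT was found in the promoters of all 5 genes (Hmgcs1, Idi1, Insig1, Lss and Srebf2), against 37.4% of the 32851 promoters in the table. Hmgcs1 held 4 copies, the first 237 bases before the start. A sterol response element form stood in Hmgcs1 alone of the 5, in overlapping matches 136 and 137 bases before the start, against 2.87% of all promoters for CACCCCAC and 1.24% for TCACNCCAC. The E-box stood in Insig1 alone, 101 bases before the start, against 7.15% of all promoters. Of 13 other enzymes of the pathway with a promoter in the table, 12 held CCAAT, 3 held CACGTG, 1 held CACCCCAC and 0 held TCACNCCAC. These are matches of letters and not measured binding.

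The first question was where in the CD8 T cell population the 8 genes were read. Levels are CPM, the UMIs of a gene per 1000000 UMIs of the summed cells of 1 cluster and library. These sums cannot tell fewer cells with a gene from less RNA of it per cell. Clusters were built by the authors from the same cells, so differences between clusters are described and not tested, and levels are compared between clusters for 1 gene at a time, not between genes. The 8 genes together fell into an upper group of clusters and a lower one. The replication-gene cluster 5 averaged 354 ± 67.0 CPM (SD, n = 6 libraries), cluster 8 averaged 317 ± 72.4 CPM, the low-UMI cluster 6 averaged 316 ± 65.4 CPM and the proliferating-like cluster 3 averaged 283 ± 43.5 CPM. The next was cluster 10 at 160 ± 28.6 CPM, followed by cluster 0 at 155 ± 31.0, cluster 1 at 132 ± 22.2, cluster 4 at 126 ± 13.7, cluster 9 at 115 ± 20.1, cluster 7 at 108 ± 24.7 and cluster 2 at 100.4 ± 12.9 CPM. The gap between cluster 3 (lowest library 234 CPM) and cluster 10 (highest library 210 CPM) was the one place in this order where the ranges of neighbours did not overlap. Within the lower group each cluster overlapped the next.

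**Figure D1:**
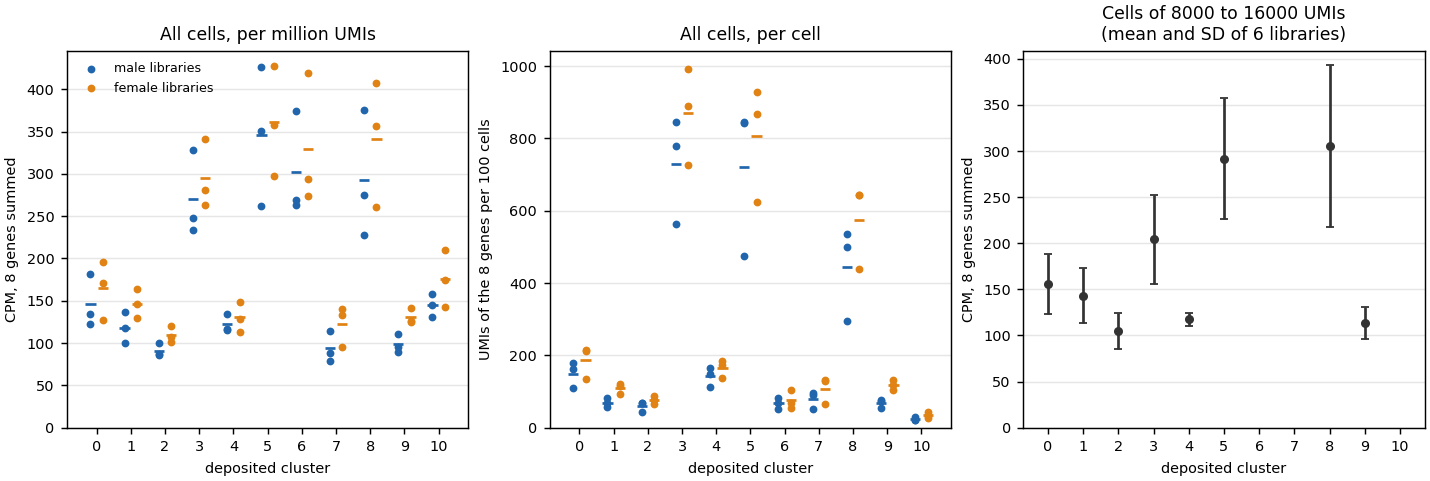
The 8 cholesterol genes summed, by deposited cluster (0 to 10, x axis), as CPM of all cells (left), as UMIs per 100 cells (middle) and as CPM of cells holding 8000 to 16000 UMIs (right). Points are libraries with the mean of 3 as a bar (male left, female right of each cluster number), and the right panel gives the mean and SD of 6 libraries for the 8 clusters with enough such cells; clusters 3, 5, 6 and 8 stand above the others in the left panel, and cluster 6 does not in the middle one.

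Depth differed between the clusters and followed this order in part. Median UMIs per cell were 23987.5 in cluster 3, 18351 in cluster 5 and 13987 in cluster 8, against 9163 in cluster 0 and 9648 in cluster 4, while clusters 6 and 10 held the fewest UMIs per cell and ranked 3 and 5 of 11 by CPM. Within cluster 0, cells at or above their library's median depth had 167 CPM of the 8 genes and shallower cells 131 CPM, with the deeper cells higher in 6 of 6 libraries. The deeper cells were higher in every library in clusters 3, 4, 5 and 6 too, in 4 of 6 in cluster 8, in 2 of 6 in cluster 2 (1.05-fold) and in 1 of 6 in cluster 10 (0.871-fold). Per cell, the summed genes gave 799 ± 148 UMIs per 100 cells in cluster 3, 764 ± 176 in cluster 5 and 509 ± 132 in cluster 8, against 168 ± 42.6 in cluster 0 and 71.8 ± 19.4 in cluster 6. In cells of like depth (8000 to 16000 UMIs), the levels were 305 ± 87.7 CPM in cluster 8, 292 ± 65.5 in cluster 5, 204 ± 48.3 in cluster 3, 156 ± 32.3 in cluster 0 and 117 ± 7.27 in cluster 4. Cluster 8 thus lay near its level over all cells and clusters 5 and 3 below theirs, and cluster 3 still exceeded cluster 0 in 6 of 6 libraries, by 1.31 ± 0.0986-fold.

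**Figure D2:**
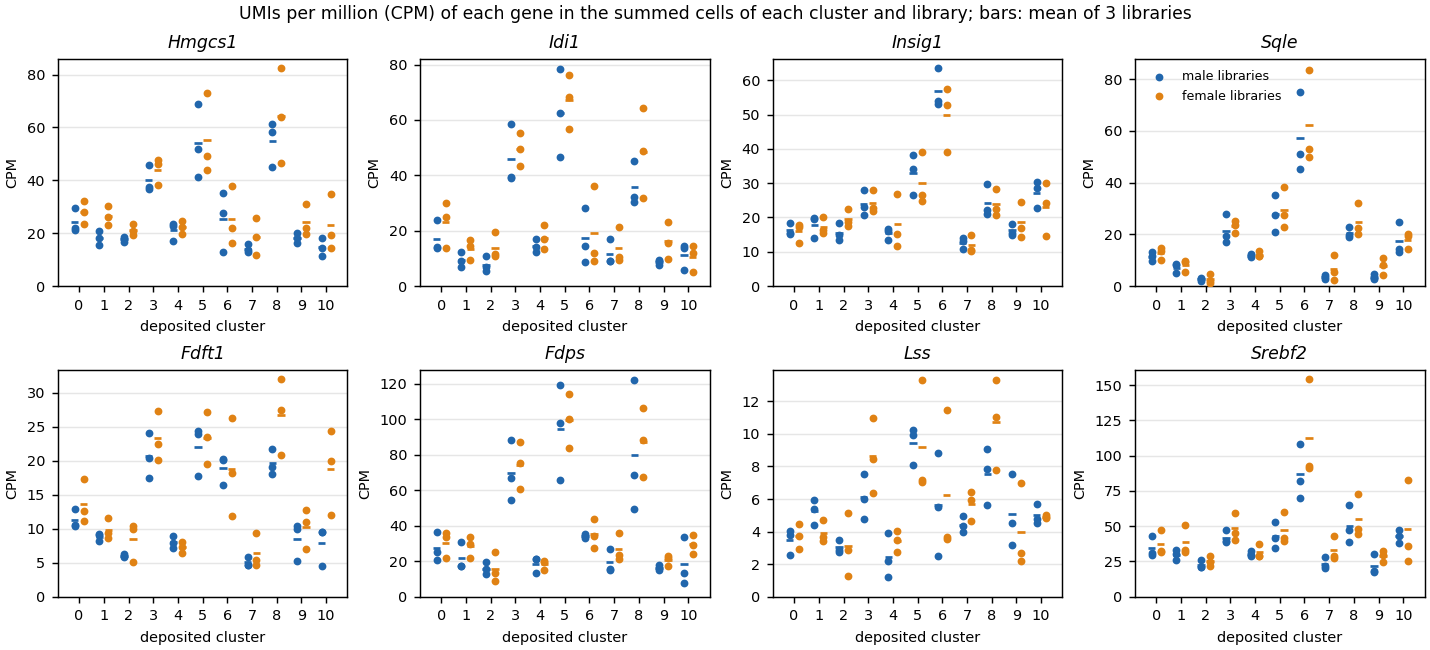
CPM of each of the 8 genes (panels, each with its own y axis from 0) by deposited cluster (x axis), with 1 point per library, male left and female right of each cluster number, and the mean of 3 libraries as a bar. Hmgcs1, Idi1, Fdps, Fdft1 and Lss peak in clusters 3, 5 and 8, whereas Sqle, Insig1 and Srebf2 peak in cluster 6.

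Early pathway enzymes came first in the order of roles. Hmgcs1 makes HMG-CoA, an early intermediate of the pathway. It read 61.4, 58.3 and 45.2 CPM in cluster 8 of male libraries 1, 3 and 4 and 63.9, 46.7 and 82.3 CPM in cluster 8 of female libraries 2, 5 and 6. In cluster 0 it read 29.6, 22.1 and 21.1 CPM in the same males and 28.1, 23.6 and 32.1 CPM in the females. Every library was thus higher in cluster 8 than any library in cluster 0. Hmgcs1 was lowest in cluster 7, at 16.4 ± 5.19 CPM, which is 3.63-fold under cluster 8.

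Idi1 converts isopentenyl diphosphate to its isomer, the starter of chain growth. It peaked in cluster 5 in 6 of 6 libraries, with 78.3, 62.4 and 46.8 CPM in males 1, 3 and 4 and 68.2, 56.6 and 76.4 CPM in females 2, 5 and 6. Its mean was 64.8 ± 12.1 CPM there and 47.6 ± 8.32 CPM in cluster 3. In cluster 2, its lowest, it averaged 10.8 ± 4.90 CPM.

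Fdps builds farnesyl diphosphate, the branch point to sterols and to protein prenylation. It averaged 96.9 ± 19.8 CPM in cluster 5, 83.5 ± 27.2 in cluster 8 and 72.1 ± 14.0 in cluster 3, and no library of these fell below 49.1 CPM. Outside them its highest mean was 34.6 ± 5.30 CPM in cluster 6. Fdps was lowest in cluster 2 at 15.8 ± 5.90 CPM, a 6.14-fold difference of means from cluster 5.

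Fdft1 (squalene synthase) commits farnesyl units to sterols. It averaged 23.2 ± 5.41 CPM in cluster 8, 22.7 ± 3.47 in cluster 5 and 22.0 ± 3.45 in cluster 3, and these did not differ beyond their spread. Its lowest mean was 5.76 ± 1.82 CPM in cluster 7. Lss (lanosterol synthase) closes the sterol rings and was the least counted of the 8, with 1696 UMIs in all cells. It averaged 9.30 ± 2.40 CPM in cluster 5 and 9.13 ± 2.72 CPM in cluster 8, against 2.93 ± 1.11 CPM in cluster 4.

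Sqle, Insig1 and Srebf2 followed another order, with cluster 6 on top in 6 of 6 libraries each. Sqle (squalene epoxidase, a second control point of the pathway) read 74.9, 51.2 and 45.2 CPM in cluster 6 of males 1, 3 and 4 and 52.9, 49.8 and 83.6 CPM in females 2, 5 and 6. All of these exceeded its highest library in any other cluster, 38.2 CPM in cluster 5, where it averaged 28.7 ± 6.74 CPM. Sqle had the widest span of the 8 genes, 23.0-fold between the means of cluster 6 and cluster 2 (2.59 ± 1.14 CPM). Insig1, which retains SCAP in the endoplasmic reticulum, averaged 53.3 ± 8.02 CPM in cluster 6 and 31.5 ± 6.38 CPM in cluster 5, and the 2 ranges just failed to overlap (lowest 39.15 CPM in cluster 6, highest 39.11 CPM in cluster 5). Srebf2, which encodes SREBP2 itself, averaged 99.8 ± 29.4 CPM in cluster 6, 52.9 ± 13.3 in cluster 8 and 23.8 ± 3.14 in cluster 2.

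Cluster 6 cells held few UMIs and many mitochondrial reads, as given above, and the part of that in these levels was not tested. Per cell the order turned round: the 8 genes gave 71.8 UMIs per 100 cells in cluster 6, below the 168 of cluster 0. Cluster 10, with a like number of UMIs per cell, had 160 ± 28.6 CPM of the 8 genes, and cluster 6 exceeded it by 1.98 ± 0.325-fold, in 6 of 6 libraries, with 3 of 8 genes (Sqle, Insig1 and Srebf2) higher in every library, against 13.8% of the 8622 genes with a mean of at least 5 CPM. Of 14 other enzymes at that level, 8 were higher in every library, as were 7 of 10 regulators of SREBP processing. So were 5 of 11 genes of sterol uptake and transport and 2 of 7 fatty acid synthesis genes. Of 6 genes of the list of LXR targets, efflux and esterification 1 was, and of 11 isoprenoid genes 0 were. Sqle was 3.39 ± 0.555-fold higher in cluster 6 than in cluster 10. Cyp51, which demethylates lanosterol, reached 176 ± 41.3 CPM in cluster 6, against 70.1 ± 10.5 CPM in cluster 5.

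Cluster 8 differed from cluster 0 in the same direction for every gene of the set. All 8 were higher in cluster 8 in 6 of 6 libraries, against 10.6% of the 8622 genes with a mean of at least 5 CPM. Fdps was 2.84 ± 0.351-fold higher, Lss 2.52 ± 0.406-fold, Hmgcs1 2.28 ± 0.271-fold and Idi1 2.14 ± 0.176-fold. Sqle was 1.90 ± 0.316-fold higher, Fdft1 1.85 ± 0.174-fold, Insig1 1.49 ± 0.136-fold and Srebf2 1.46 ± 0.0873-fold. The sum was 2.03 ± 0.0892-fold higher, with libraries between 1.85 and 2.09-fold. In cells of like depth the sum was 1.94 ± 0.327-fold higher. Of 14 other enzymes at that level, 10 were higher in cluster 8 in every library and 0 lower, with a median fold of 1.42 against 0.95 over all 8622 genes. Of 10 regulators of SREBP processing, 0 were higher and 1 lower in every library, against 10.6% and 25.0% of the 8622 genes.

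The cytokine-producing-like cluster 4 lay below the mean of clusters 0 and 8. It had 0.546 ± 0.0712 of their mean level for the summed genes. Here 7 of 8 genes were lower in every library, against 30.5% of the 8622 genes. Fdps had 0.341 ± 0.0726 of the level, Fdft1 0.452 ± 0.125 and Lss 0.473 ± 0.170. Insig1 was the exception, at 0.835 ± 0.264, since female library 6 was higher in cluster 4. Of 14 other enzymes, 12 were lower in every library. At like depth, cluster 4 had 0.774 ± 0.129 of the summed level of cluster 0, lower in 6 of 6 libraries. By single genes, only Fdps (0.593 ± 0.178) and Fdft1 (0.628 ± 0.207) were lower there in every library. Every other gene of the set was higher in 1 or 2 libraries, with Sqle at 0.965 ± 0.169 and Insig1 at 0.994 ± 0.169. Of 7 fatty acid synthesis genes, targets of SREBP1, 3 were higher in cluster 4 in every library (Fasn, Acaca and Elovl5), against 31.0% of the 8622 genes. Another 2 were lower in every library (Scd2 and Acss2), against 30.5%.

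The mean of clusters 3 and 5, with cell cycle and replication genes on top, stood above the mean of clusters 0 and 8 by 1.36 ± 0.0995-fold for the sum. By these means, 6 of 8 genes were higher in every library, against 35.1% of the 8622 genes. Cluster 8 alone, at 317 CPM of the summed genes, lay above cluster 3 at 283 CPM. Cluster 5, at 354 CPM, exceeded cluster 8 in 6 of 6 libraries, with ranges that overlapped. Idi1 showed the widest gap at 1.89 ± 0.325-fold, and Srebf2 the narrowest at 1.02 ± 0.0572-fold, higher in 4 of 6 libraries. At like depth (8000 to 16000 UMIs) the fold of the sum was 1.09, with cluster 8 at 305 CPM, cluster 5 at 292 and cluster 3 at 204. Cluster 5 alone was 1.87 ± 0.0981-fold above cluster 0 at like depth, in 6 of 6 libraries. For the mean of clusters 3 and 5 against that of 0 and 8, 10 of 14 other enzymes were higher in every library and 0 lower.

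Detection in single cells gave the same upper group of clusters. After each cell was thinned to 1000 UMIs, which left out 169 male and 73 female cells, the share of cells with a UMI of any of the 8 genes was 27.4% ± 4.28 in cluster 5, 25.1% ± 5.92 in cluster 8, 23.7% ± 4.54 in cluster 6 and 22.7% ± 3.51 in cluster 3 (mean and SD of 6 libraries). It was 15.9% ± 1.84 in cluster 10, 12.9% ± 1.53 in cluster 0, 12.3% ± 1.55 in cluster 1, 11.5% ± 2.15 in cluster 4, 11.1% ± 2.27 in cluster 9, 9.53% ± 1.96 in cluster 2 and 8.95% ± 4.11 in cluster 7. Without thinning the shares were 92.2% in cluster 5, 88.8% in cluster 8, 64.9% in cluster 0 and 39.7% in cluster 6. At 1000 UMIs, Fdps was detected in 8.17% of cells of cluster 5 and 1.24% of cells of cluster 2, and Srebf2 in 8.64% of cells of cluster 6 and 2.28% of cells of cluster 2. These shares are set by sampling as well as by expression.

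Within a cluster and library, the genes tended to be detected in the same cells. Thinned to 5000 UMIs, 19285 cells remained, and for all 28 pairs more cells held both genes than the product of their shares gave, by 1.15 to 1.55-fold with a median of 1.38-fold. In 21 of 28 pairs the ratio was above 1 in every library. At 1000 UMIs, 27 of 28 pairs were above 1, but only 2 of 28 were so in every library. One of these was Idi1 with Fdps, neighbouring steps of the pathway. They were found together in 54 cells, against 25.8 given by their shares, with ratios of 1.40 to 2.47 over the libraries. Pairs of other genes were not counted, so these ratios have no background beside them. Across the 11 cluster means, the correlation of 2 genes of the set (Pearson r over clusters that share libraries, a description with no test) ran between 0.42 and 0.95 with a median of 0.78, highest for Idi1 with Fdps and lowest for Idi1 with Insig1.

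Genes outside the set with the most similar pattern over the 66 sums, among 5265 genes with a mean of at least 20 CPM, were Gzmc (r = 0.86), Galnt1 (0.84), Gzme (0.83), Gzmd (0.83), Cdk6 (0.83), Fkbp2 (0.83), Gzmf (0.82), Hsp90b1 (0.82), Tkt (0.81) and Nucb1 (0.80). Gzmc, Gzmd, Gzme and Gzmf are granzymes, and 8 of the 10 had their highest mean in cluster 6 rather than 8. Sums of 1 library share their depth, and these values are a description.

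Other genes of sterol control split by role. Stard4, a carrier of cholesterol between membranes, followed the set (r = 0.87), as did Cyp51 (0.88) and Msmo1 (0.81) among the other enzymes. Acat2 (0.20) and Mvd (0.26) followed it less. Mylip, a ubiquitin ligase and LXR target, ran the opposite way (r = −0.83), as did Abcg1, an exporter of cholesterol (−0.71), and Arl4c, a small GTPase and LXR target (−0.65). Mylip averaged 44.0 ± 10.5 CPM in cluster 1, 47.8 ± 6.24 in cluster 2 and 38.45 ± 10.1 in cluster 9, against 8.61 ± 2.44 in cluster 8, 7.41 ± 1.26 in cluster 5 and 6.81 ± 1.40 in cluster 3. Abcg1 averaged 43.9 ± 6.54 CPM in cluster 1 and 12.6 ± 2.72 CPM in cluster 8. Cluster 6 parted the pair, with Mylip at 6.29 CPM and Abcg1 at 32.65 ± 10.9 CPM. Nr1h2, which encodes LXR beta, ranged between 43.7 and 70.6 CPM over the cluster means, and Nr1h3, LXR alpha, averaged at most 0.813 CPM.

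**Figure D3:**
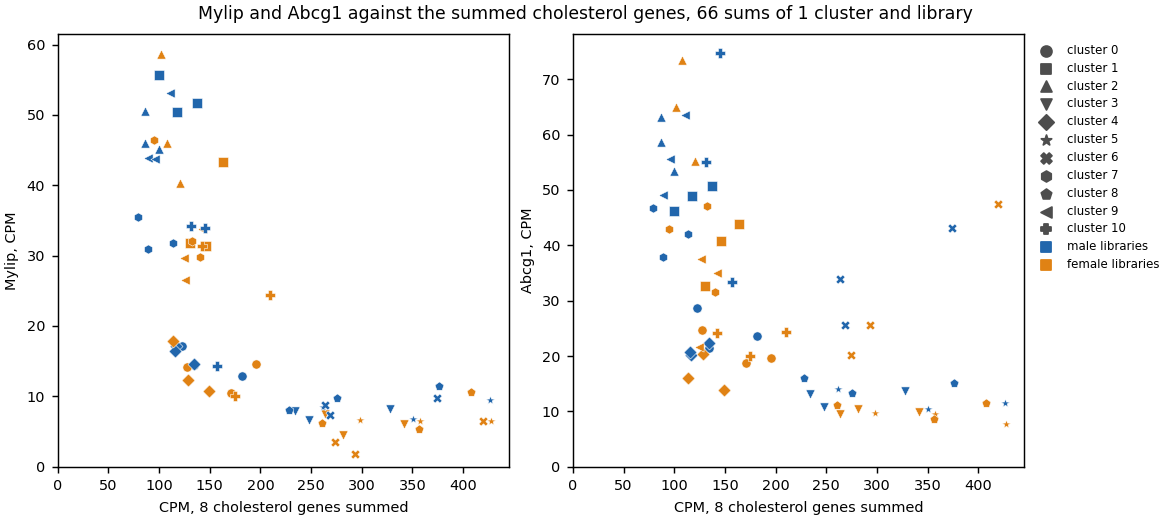
Mylip (left) and Abcg1 (right), in CPM, against the summed CPM of the 8 cholesterol genes, for 66 sums of 1 cluster and library, with shapes for clusters and colours for male and female libraries. Sums with over 225 CPM of the cholesterol genes hold under 12 CPM of Mylip, and most sums of clusters 1, 2, 7, 9 and 10 lie in the upper left of both panels.

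The study's comparison was of male with female hosts. Over all CD8 T cells outside cluster 2, none of the 8 genes passed the test between the sexes (edgeR's quasi-likelihood test on sums per library, p-values adjusted by Benjamini-Hochberg over 12194 genes), where 0.0902% of all genes did. DESeq2 and limma-voom called 0 of the 8 as well. Levels in this comparison are CPM adjusted by edgeR's TMM factors. All 8 log2 fold changes (male minus female) lay below 0, with a median of −0.24, against a median of 0.00 over all genes, of which 48.8% lay below 0. Of 15 other enzymes, 15 lay below 0, with a median of −0.15, and 0 passed the test. Cells tended to be shallower in males. Taken over all clusters, the middle cell by depth held 6976, 9210 and 6397.5 UMIs in libraries 1, 3 and 4 (male). In libraries 2, 5 and 6 (female) it held 10114.5, 9395.5 and 9043 UMIs, with male library 3 above female library 6. Whether this depth had a part in the direction of the 8 genes was not tested.

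Hmgcs1 read 36.6, 34.5 and 29.9 CPM in male libraries 1, 3 and 4, against 37.5, 36.6 and 44.8 CPM in female libraries 2, 5 and 6. The sexes did not overlap, though male library 1 and female library 5 were nearly level, and Hmgcs1 was the one gene of the 8 so placed, where 5.43% of genes were without overlap and lower in males. Its log2 fold change was −0.23 ± 0.11 (SE) with an adjusted p of 0.614. Idi1 read 37.3, 30.6 and 25.8 CPM in males, against 41.2, 31.4 and 43.9 CPM in females, with overlap. Its log2 fold change of −0.31 ± 0.16 was the lowest of the 8, with an adjusted p of 0.672 from the same test.

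Fdft1 read 15.6, 15.9 and 13.4 CPM in males, against 18.3, 15.8 and 20.5 CPM in females. It had the smallest p of the 8 by edgeR, 0.0354 unadjusted and 0.555 adjusted, at a log2 fold change of −0.28 ± 0.11. It was the one gene of the 8 with an unadjusted p under 0.05, which 8.36% of all genes had. Fdps averaged 50.3 ± 11.8 CPM in males and 58.8 ± 8.92 CPM in females, Sqle 16.8 ± 2.42 and 20.1 ± 2.83 CPM, Lss 5.75 ± 1.03 and 6.86 ± 1.65 CPM, and Srebf2 37.7 ± 5.21 and 44.4 ± 9.10 CPM (SD, n = 3 each). Their log2 fold changes were −0.22 for Fdps, −0.25 for Sqle, −0.24 for Lss and −0.23 for Srebf2, and the sexes overlapped for all 4. Insig1 averaged 22.1 ± 2.06 CPM in males and 22.4 ± 3.28 CPM in females, a log2 fold change of −0.01 ± 0.12 whose sign turned under 4 of 13 alternatives. Male library 4 was the lowest male for every gene of the 8, and female library 6 the highest female for every gene but Fdps.

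**Figure D4:**
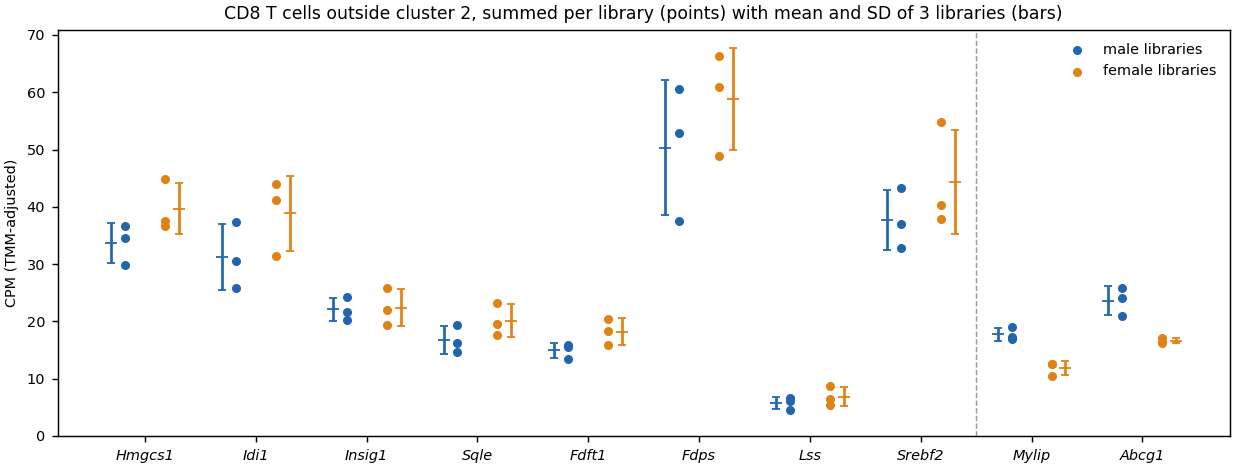
TMM-adjusted CPM of the 8 cholesterol genes and, right of the dashed line, Mylip and Abcg1, summed over CD8 T cells outside cluster 2. Points are libraries, and bars are the mean and SD of 3 (male left, female right of each gene name); the sexes overlap for 7 of the 8 genes, and for Mylip and Abcg1 they do not.

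The mix of cells differed beside this. Summed proliferation markers (15 of 16 in the table) lay between 1481 and 1698 CPM in male libraries and between 1747 and 1883 CPM in female libraries, without overlap. With the same number of cells of each cluster drawn from every library, the median log2 fold change of the 8 genes was −0.15, and 7 of 8 lay below 0. With 1 library left out the median ran between −0.35 (without female library 5) and −0.14 (without female library 6). Markers of other cells stayed low in both sexes, with the 12 myeloid markers summing to 20.3 to 22.8 CPM in males and 19.8 to 32.2 CPM in females, the tumour epithelial markers to 20.8 to 27.8 CPM in males and 18.4 to 31.3 CPM in females with Krt17 and Krt19 at 0, and the CD4 and regulatory T cell markers to 17.8 to 27.2 CPM in males and 25.7 to 44.2 CPM in females. Their part in the sex differences was not tested.

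Within clusters, none of the 8 genes passed the edgeR test in any of the 11 comparisons. The share of all genes called was 3.8% in cluster 1 and 3.41% in cluster 9. It was 0.139% in cluster 0, 0.358% in cluster 2, 0.142% in cluster 3, 0.105% in cluster 4, 0.0979% in cluster 5, 0.181% in cluster 6, 0.168% in cluster 7, 0.0968% in cluster 8 and 0.274% in cluster 10. At an unadjusted p under 0.05 there was 1 gene of the set in each of clusters 1 (Hmgcs1, where 17.3% of all genes were under it), 2 (Idi1, 6.46%), 3 (Lss, 5.48%), 8 (Fdft1, 3.36%) and 9 (Idi1, 16.5%). There was none in cluster 0 (4.61% of all genes), 4 (4.54%), 5 (3.99%), 6 (4.76%), 7 (6.88%) and 10 (5.41%). The nearest to the threshold was Hmgcs1 in cluster 1, with 18.6, 15.9 and 20.5 CPM in males, against 26.8, 30.2 and 22.3 CPM in females. Its log2 fold change was −0.54 ± 0.17, without overlap between the sexes, where 10.5% of genes were so placed and lower in males, and its adjusted p by edgeR was 0.0785. With 1 library left out that adjusted p ran between 0.0262 (without female library 6) and 0.425 (without female library 5, at a log2 fold change of −0.41). It was 0.0438 with no filter on low counts and 0.261 by DESeq2.

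Idi1 in cluster 9 read 9.85, 7.94 and 9.05 CPM in males, against 10.0, 15.4 and 22.3 CPM in females, a log2 fold change of −0.81 ± 0.32 with an adjusted p of 0.169 by edgeR. The sexes did not overlap, as for 10.2% of genes in that cluster on the same side. Fdft1 in cluster 8 read 20.8, 19.8 and 18.0 CPM in males, against 28.4, 21.1 and 31.4 CPM in females, at a log2 fold change of −0.43 ± 0.17 and an adjusted p of 0.999 by the same test. They did not overlap either, as for 3.68% of genes in that cluster on the same side. In clusters 3, 9 and 10 all of the tested genes of the set lay below 0, at 8 of 8, 6 of 6 and 1 of 1. Cluster 6 was the most even, with 3 of 7 above 0 and a median log2 fold change of −0.03.

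**Figure D5:**
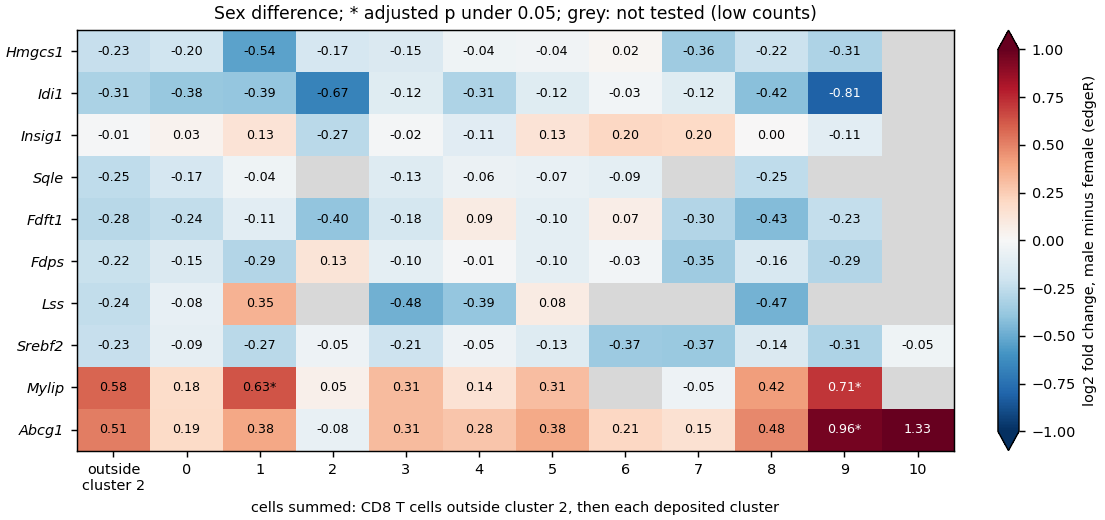
Log2 fold change, male minus female, by edgeR for the 8 cholesterol genes and for Mylip and Abcg1 (rows), over CD8 T cells outside cluster 2 and in each deposited cluster (columns). Blue is lower in males, red is higher in males, grey was not tested for low counts, and an asterisk marks an adjusted p under 0.05, found for Mylip in clusters 1 and 9 and Abcg1 in cluster 9.

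Whether the sex difference varied between cell states was tested with the library as a block. For clusters 3 and 5 against 0 and 8, none of the 8 genes passed in edgeR, where 0.0353% of 11339 genes did, and 0 of the 8 had an unadjusted p under 0.05, against 474 of all genes (4.18%). For cluster 4 against 0 and 8, none of the 8 and 0 of 10192 genes passed (0%), with 0 of the 8 at an unadjusted p under 0.05, against 376 of all genes (3.69%). The largest difference of sex effects was that of Fdft1 between cluster 4 and clusters 0 and 8, at 0.44 ± 0.24 on the log2 scale with an adjusted p of 1.

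Among the other listed genes of sterol and lipid metabolism, 0 passed over CD8 T cells outside cluster 2. Within clusters 3 tests passed, all of LXR targets that were higher in males. They lay in clusters 1 and 9, where 3.8% and 3.41% of all genes passed. In cluster 1, 453 of 848, 278 of 411 and 425 of 1222 cells of males 1, 3 and 4 reached 5000 UMIs. So did 228 of 295, 426 of 594 and 157 of 221 cells of females 2, 5 and 6. In cluster 9 it was 215 of 335, 156 of 199 and 189 of 382 cells in the same males. In the females it was 88 of 109, 133 of 158 and 79 of 93 cells. The part of this depth in the calls was not tested. In both clusters no tested gene of the other lists passed. Whether listed genes passed more often than all genes was not tested. Mylip rose in cluster 1, with 52.9, 57.3 and 49.8 CPM in males, against 32.0, 31.6 and 41.6 CPM in females. Its log2 fold change was 0.63 ± 0.13 with an adjusted p of 0.0122 by edgeR, and without female library 5 the adjusted p was 0.139. Abcg1 rose in cluster 9, with 66.1, 51.9 and 55.2 CPM in males, against 38.0, 21.4 and 33.5 CPM in females. Its log2 fold change was 0.96 ± 0.20 with an adjusted p of 0.00523 by edgeR, and without female library 5 the adjusted p was 0.135. Mylip rose in cluster 9 as well, to 48.4 ± 6.19 CPM in males, against 29.5 ± 2.79 CPM in females, at an adjusted p of 0.0343 by edgeR, and lost the call under DESeq2 (0.123) and without any of male libraries 1 and 3 and female libraries 2 and 5 (0.0668 to 0.223).

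Over CD8 T cells outside cluster 2, the same genes had the smallest p-values of their list. Mylip averaged 17.7 ± 1.10 CPM in males and 11.8 ± 1.22 CPM in females, a log2 fold change of 0.58 ± 0.10. Abcg1 averaged 23.6 ± 2.47 CPM in males and 16.6 ± 0.439 CPM in females, a log2 fold change of 0.51 ± 0.09. Abca1, another cholesterol exporter, was scarce, with 1.64 ± 0.362 CPM in males and 0.559 ± 0.158 CPM in females, a log2 fold change of 1.60 ± 0.30. None of the 3 overlapped between the sexes, where 8.4% of genes were without overlap and higher in males. Their adjusted p-values were 0.121 for Mylip, 0.125 for Abcg1 and 0.128 for Abca1 by edgeR, and 0.00198, 0.00536 and 0.006 in the same order by DESeq2. By limma-voom they were 0.161 for each of the 3. With the same number of cells of each cluster drawn from every library, the log2 fold changes by edgeR were 0.41 for Mylip (adjusted p 0.443), 0.33 for Abcg1 (0.683) and 1.02 for Abca1 (0.637). Of the 9 listed genes of efflux and esterification that were tested, 4 lay above 0 and 5 below, with Nr1h3 the lowest at −0.71 on 32 UMIs in males and 41 in females. Soat1, which stores cholesterol as ester, averaged 22.4 ± 1.60 CPM in males and 24.8 ± 1.54 CPM in females.

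The remaining lists passed no test over these cells. Of 12 genes of sterol uptake and transport, 8 lay below 0 and 4 above. Gramd1a, a sterol transfer protein, averaged 85.6 ± 3.41 CPM in males and 98.8 ± 10.2 CPM in females, with an adjusted p of 0.572 by edgeR. Msmo1, a sterol demethylation enzyme, had the smallest adjusted p of the other enzymes, 0.448 at a log2 fold change of −0.28 ± 0.10. Of 11 regulators of SREBP processing 6 lay above 0, of 11 genes of the isoprenoid branch 8 did, and of 10 fatty acid synthesis genes 6 did. Fntb, a subunit of protein farnesyltransferase, had the smallest p of the isoprenoid list, with 6.40 ± 0.260 CPM in males and 5.07 ± 0.430 CPM in females, without overlap, and an adjusted p of 0.445 by edgeR.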

How the data were processed

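Single-cell libraries of sorted CD8 T cells were analysed from the raw count table of UMIs that the authors deposited. Per the submitters' processing notes, Cell Ranger, Seurat and the build mm10 were used, with versions not given in the sources used here, as for filters on cells and doublets; no doublets were removed here. The deposited metadata gives, in other units, host sex and cluster, and a count of UMIs that equalled the table's column sum in 26698 cells. The number after the barcode was taken as the library, as 1 replicate each, and which labelled replicate each library is was not settled. Nothing says more on the mice behind each library, so p-values measure the spread between libraries. Number of columns of other samples left unused: 0.

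Counts were summed per library and cluster, or over all clusters other than 2, with at least 20 cells in each sum. Sexes were tested by edgeR 4.0.16 (R 4.3.3) (TMM, filterByExpr, robust quasi-likelihood, no covariate) and interactions with the library as a block, adjusted over all genes tested, called at an adjusted p under 0.05. DESeq2 1.42.0 and limma-voom (limma 3.58.1) were alternatives. The tests were tested on simulated data. Cell thinning to 1000 or 5000 UMIs was random without replacement; intervals from counts would cover counting error alone. Likeness is Pearson's r of log2(CPM + 1). Python 3.11.15, numpy 2.4.6, pandas 2.3.3, scipy 1.17.1 and matplotlib 3.10.9 were used. Positions are from GENCODE M21. The genes, lists and markers were chosen with earlier results of these data known. Named genes are the 8, listed genes that passed a test, up to 4 per list by p, and the 10 most similar genes; Cyp51, Mvd, Fasn, Acaca, Elovl5, Scd2, Acss2, Soat1, Nr1h2 and Nr1h3 were added after their values were seen. Some listed genes are not reported here.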

Additional observations from a re-analysis of the deposited data

How the results depend on the processing

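No member of the set passed a test between the sexes over CD8 T cells outside cluster 2 under any of the 13 alternatives. Genes called there numbered 11, and 136 with DESeq2, which called 3 listed genes in place of 0; leaving out 1 library gave 9 to 16. Summed over the 11 clusters, genes called numbered 751, members 0 and listed genes 3. With no filter on low counts these were 1434, 1 and 5. Leaving out 1 library gave 232 to 1262 genes, 0 to 1 members and 1 to 7 listed genes, with the fewest genes without female library 5, 321 without male library 1, and the most without female library 6. For the interaction of clusters 3 and 5 with 0 and 8, 4 genes were called, and 1 to 10 with a library left out; for cluster 4, 0 were called, and 0 to 4. Insig1 turned positive with limma-voom (log2 fold change 0.0068), with the same number of cells of each cluster from every library (0.047), without male library 4 (0.04) and without female library 6 (0.10); over the libraries left out it ran between −0.12 and 0.10. The mean summed level of clusters 3 and 5 over that of 0 and 8 was 1.36-fold in CPM and 2.34-fold in counts per cell. It was 1.09-fold in cells of 8000 to 16000 UMIs, an alternative added after seeing the data. With a library left out it was 1.34 to 1.39-fold. Cluster 4 over 0 and 8 was 0.546 in CPM, 0.464 in counts per cell and 0.524 to 0.559 with a library left out. By the share of cells with any of the 8 genes it was 0.614 at 1000 UMIs, 0.768 at 5000, 0.85 with no thinning and 0.592 to 0.637 with a library left out. Co-detection at 5000 UMIs was also added after seeing the data. The causes were not tested. No paired analysis was possible because the columns carry library numbers and not the replicate numbers of the labels. With 3 libraries per sex, the standard errors of the 8 log2 fold changes were 0.11 to 0.19.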
